A study of Drosophila melanogaster with 24 samples.

Results

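Transcript levels in adult females of lines selected for heat resistance were compared directly with those in lines selected for cold resistance. The differences were taken between the 3 heat selected and 3 cold selected arrays of the 24 arrays in the series, chosen by the line named in each title. No control array entered these differences. Of 13966 probe sets other than the array maker's controls, 9023 had a log2 value above 4 on at least 3 of the 24 arrays and were tested. They named 7439 different genes.

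Each array held RNA from whole adult Drosophila melanogaster females of a separate line, extracted from vials of 10 females and labelled from 5 micrograms of total RNA with oligo-dT priming. The heat selected group is lines 1, 2 and 3 selected for heat resistance, and the cold selected group is lines 1, 2 and 3 selected for cold resistance. The other 18 arrays were unselected control lines, lines named constant 30 (read as degrees), and lines selected for longevity, knock-down, starvation or desiccation. They entered the fit as groups of their own, so they share in the estimate of spread behind every p-value and error, and they counted in the filter. Their levels are given below only as a description. The sources used here do not give the strain of origin, the selection procedure, the number of generations, the age of the females or whether any female met heat or cold before sampling. The labels call the lines biological replicates. The p-values and errors below rest on the spread between lines within each group, pooled over all 8 groups and so not only over the 6 compared arrays.

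In insects, heat denatures proteins, and heat shock proteins are chaperones that bind and refold them. Cold stiffens membranes and disturbs ion balance, and adaptation to it is known to involve membrane lipids and small protective solutes such as trehalose and proline. In an adult female much of the RNA comes from the ovary. There the follicle cells that surround each oocyte first secrete the vitelline membrane, the inner layer of the eggshell, and then the chorion, its outer layer. The eggshell genes are therefore read in short, fixed windows of egg development.

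The 6 arrays were alike in depth of signal, with medians from 5.51 to 5.58 (log2). Between 8642 and 9071 probe sets per array lay above 4. Arrays correlated at 0.989 or above within the heat selected group, at 0.992 to 0.995 within the cold selected group and at 0.987 to 0.995 between the groups. Residual SDs had a median of 0.12. On the first principal component of all 24 arrays, heat selected replicates 1, 2 and 3 lay at 18.5, 22.1 and 6.47, cold selected replicates at -2.05, 0.62 and 10.0, and the other 18 arrays from -11.1 to 14.8. Heat selected replicates 1 and 2 thus stood apart from the rest and heat selected replicate 3 did not. RNA quality was read from the array maker's 3 control transcripts, as the log2 signal near their 3' end minus that near their 5' end. It was 1.62, 1.34 and 1.68 in the heat selected group, 1.75, 1.63 and 1.65 in the cold selected group and 1.50 to 1.93 on the other arrays, so heat selected replicate 2 had the smallest difference of the 24. The female label held in the yolk protein and eggshell genes, which were bright on average on all 6 arrays. Their list means ran from 12.96 to 13.41 and from 10.01 to 11.38. Single eggshell genes were dimmer, such as Vm26Ac at 5.71 on heat selected replicate 1. Of 21 testis markers on the array 16 were below 4 on all 6 arrays, as were 11 of 15 male accessory gland markers.

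Few transcripts passed the threshold for a call between the heat selected and the cold selected lines. With 3 lines per group, a low count of calls does not show that the other transcripts were equal. The threshold for a call was an adjusted p under 0.05 (limma, Benjamini-Hochberg over 9023 probe sets). By that rule 1 transcript was higher in heat selected females (0.0111% of those tested) and 2 were lower (0.0222%). CG15412 rose, and CG15221 and Cdk5 fell. At an unadjusted p under 0.05 there were 992 probe sets, 631 higher and 361 lower. The log2 changes ran from -2.37 to 2.03, with 97.7% of them within 0.5 of 0. Of the 39 differences of at least 1, 31 were lower and 8 higher in the heat selected lines, and none of the 39 was called. Counted by gene, all 3 heat selected values were above all 3 cold selected values in 544 genes (7.31%) and below them in 310 (4.17%). That excess of higher genes depended on the scaling, since the numbers were 448 and 419 after quantile normalization and 316 and 482 with each array centred on its median.

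**Figure D1:**
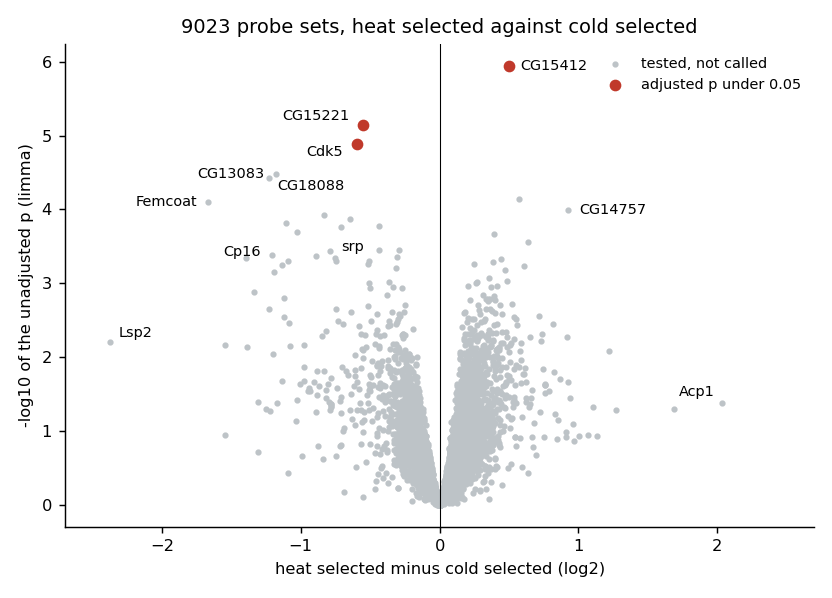
Change of each of the 9023 tested probe sets, heat selected minus cold selected on the log2 scale, against -log10 of the unadjusted limma p; n = 3 lines per group. The 3 called probe sets (red) have changes of 0.50, -0.55 and -0.59, and the probe sets with larger changes, such as Lsp2 at -2.37 and Acp1 at 2.03, lie lower on the p axis.

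CG15412, a gene named here only by its number, measured 4.43, 4.58 and 4.57 in heat selected lines 1, 2 and 3, against 3.93, 4.04 and 4.11 in the cold selected lines. All 3 heat selected lines were above all 3 cold selected lines and above each of the other 18 arrays, which ran from 3.86 to 4.16. The change was 0.50 ± 0.07 (SE of the fit, n = 3 per group), or 1.41-fold higher, with an adjusted p of 0.0103 (limma). The transcript is dim, with a mean level at the 5.2 percentile of the tested probe sets.

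CG15221 measured 4.87, 5.01 and 4.82 in the heat selected lines and 5.34, 5.70 and 5.32 in the cold selected lines. The 18 other arrays ran from 5.03 to 5.32, all above the heat selected lines, and the highest of them was level with the lowest cold selected line. By their means, heat selected lines were the lowest and cold selected lines the highest of the 8 groups. It fell by 0.55 ± 0.09 on the log2 scale, 1.46-fold (adjusted p = 0.0320, limma). Cdk5, a cyclin-dependent kinase known mainly for its work in neurons, measured 6.70, 6.44 and 6.93 against 7.45, 7.20 and 7.20. No heat selected line reached the lowest cold selected line or the lowest of the other arrays, which ran from 7.10 to 7.66. Its fall was 0.59 ± 0.10, or 1.51-fold (adjusted p = 0.0387, limma). With the spread taken from the 6 compared arrays alone, none of the 3 passed. The adjusted p was then 0.37 for CG15412, 0.49 for CG15221 and 0.52 for Cdk5 (limma). Each of the 3 calls rested on particular lines: the adjusted p of CG15412 was 0.066 when heat selected replicate 2 was left out, 0.079 when cold selected replicate 1 was and 0.073 when cold selected replicate 2 was, and the other 2 calls were lost without any of these lines or heat selected replicate 1. Cdk5 also missed the threshold with quantile normalization (adjusted p = 0.063), with array weights (0.077), with a filter at log2 above 6 (0.084) and with the RNA quality measure as a covariate (0.073, at -0.49), and under the first, second and last of these the other 2 stayed under 0.05.

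**Figure D2:**
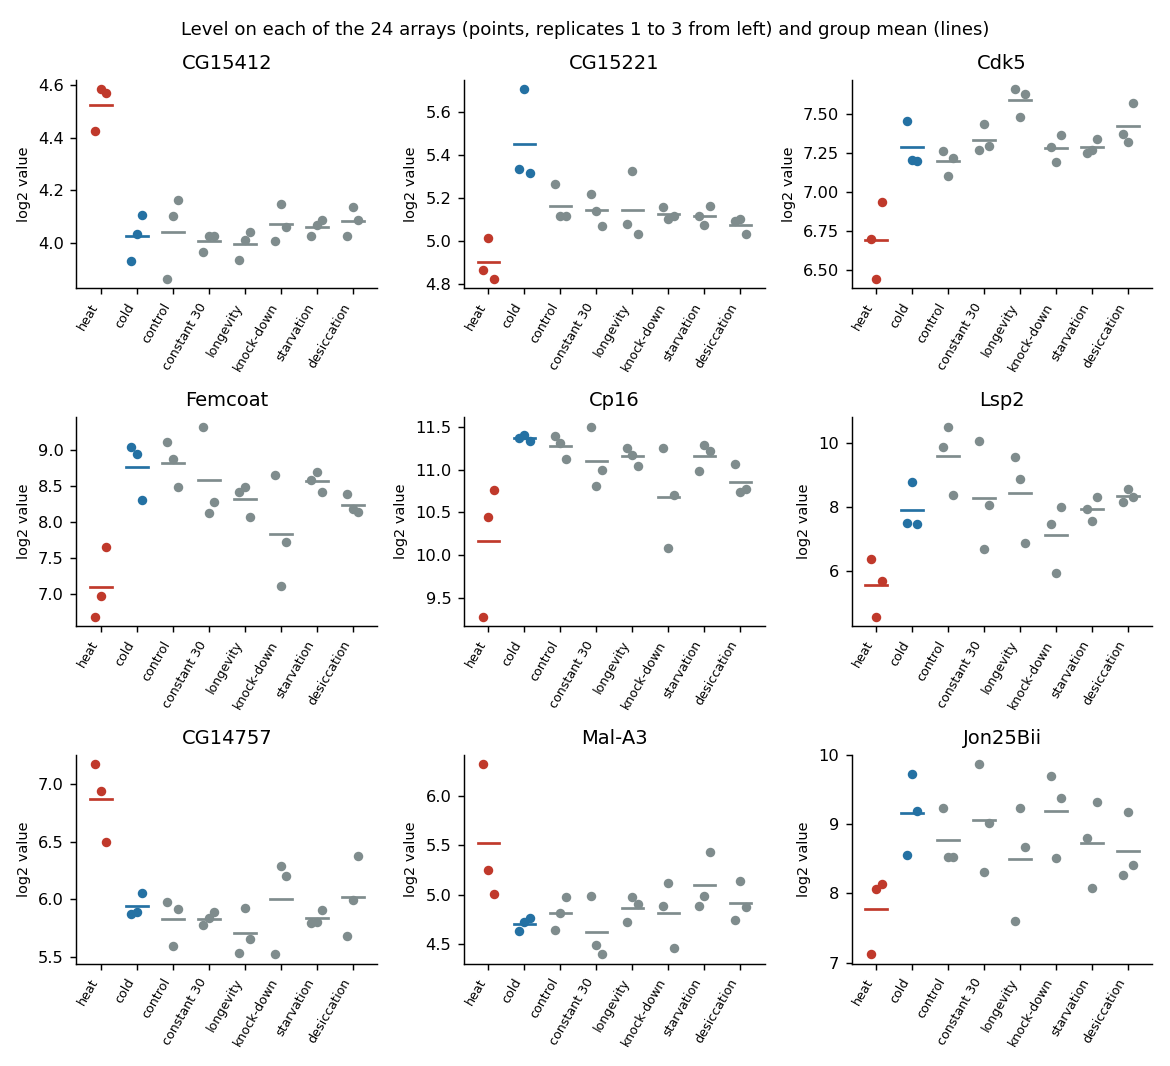
Log2 level of 9 genes on each of the 24 arrays (points, replicates 1 to 3 from left to right) with the group mean (line), heat selected in red, cold selected in blue and the other 6 groups in grey; each panel has its own axis, which does not start at 0. CG15412 and CG14757 are higher and Cdk5, Femcoat and Lsp2 lower on all 3 heat selected arrays than on all 3 cold selected arrays, while CG15221 is lower on all 3 heat selected arrays than on any other array.

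Genes of the eggshell were lower in heat selected than in cold selected females by some of the largest differences measured, but none of the 21 tested passed the threshold. The median change of these 21 genes was -0.79, against 0.02 over all 7439 genes, with 20 of the 21 below 0. In 9 of them all 3 heat selected values were below all 3 cold selected values, a pattern found in 4.17% of all genes, and in none was the reverse true. The mean level of the list was 10.01, 10.31 and 11.14 in heat selected lines 1, 2 and 3, against 11.26, 11.29 and 11.38 in the cold selected lines. The groups did not overlap, but heat selected replicate 3 was only just below the cold selected lines, and the other 18 arrays ran from 10.70 to 11.64. In whole females, fewer cells of a type and less RNA per cell cannot be told apart.

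Femcoat, a protein of the eggshell, was the farthest down. It measured 6.69, 6.97 and 7.65 in the heat selected lines and 9.05, 8.95 and 8.31 in the cold selected lines, a difference of -1.67 ± 0.34 (adjusted p = 0.102, limma). The highest heat selected line was well below the lowest cold selected line. Heat selected lines also had the lowest of the 8 group means, at 7.10, followed by knock-down selected lines at 7.83. The lowest of the other 18 arrays was 7.11, below heat selected replicate 3. Cp18, a chorion protein, measured 10.22, 12.15 and 12.26 against 12.86, 12.98 and 12.80, which is -1.34 ± 0.36 with an adjusted p of 0.242. Its cold selected values were tightly grouped, and the heat selected mean was pulled down mainly by replicate 1. Cp16, another chorion protein, had values of 9.28, 10.45 and 10.76 against 11.37, 11.41 and 11.34, a difference of -1.21 ± 0.28 (adjusted p = 0.157). Cp19, also of the chorion, had 11.70, 12.42 and 12.75 against 13.51, 13.42 and 13.36, a difference of -1.13 ± 0.28 (adjusted p = 0.157). The lowest of the other 18 arrays was 11.96 for Cp18, 10.09 for Cp16 and 11.92 for Cp19, each within the heat selected range. Knock-down selected lines had the next lowest group mean in each, at 12.34, 10.68 and 12.67. In the gene table of assembly Release 6, Cp18, Cp15, Cp19 and Cp16 are immediate neighbours on chromosome arm 3L, so they are not 4 separate loci.

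Chorion and vitelline membrane genes behaved differently from line to line, in a split made after the values were seen and given without a test. Among 7 chorion genes (Cp7Fc, Cp15, Cp16, Cp18, Cp19, Cp36 and Cp38) the median distance from the cold selected mean was -1.11 on heat selected replicate 1, -0.92 on replicate 2 and -0.58 on replicate 3. All 7 were below every cold selected array on replicates 1 and 2, and 5 of the 7 on replicate 3. Among 5 vitelline membrane genes (Vm26Aa, Vm26Ac, Vm32E, Vm34Ca and psd) the same distances were -2.19, -1.68 and 0.35. So all 5 were below every cold selected array on heat selected replicates 1 and 2, and all 5 were above the cold selected mean on heat selected replicate 3. Vm26Ac shows this plainly, at 5.71, 6.21 and 8.37 against 8.03, 7.44 and 8.73. By contrast Pxt, a peroxidase that cross-links the shell, lay at -0.09 ± 0.08, closca (clos) at -0.03 ± 0.09 and fs(1)N, another vitelline membrane component, at 0.07 ± 0.07.

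**Figure D3:**
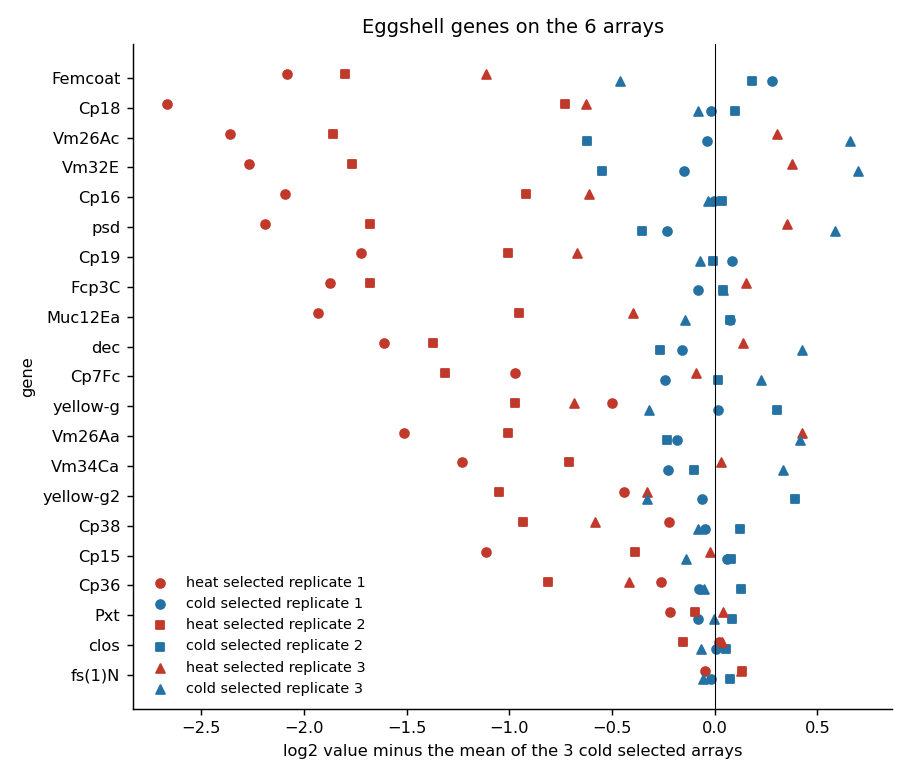
Log2 value of 21 eggshell genes on each heat selected (red) and cold selected (blue) array, minus the mean of the 3 cold selected arrays; genes are ordered by the heat selected minus cold selected change, and marker shapes give the replicate number. Heat selected replicates 1 and 2 lie far to the left for most genes, whereas replicate 3 is to the left for Femcoat and most chorion genes and at or above 0 for Vm26Ac, Vm32E, psd, Vm26Aa and Vm34Ca.

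Heat selected replicate 3 carried much weight in these values. Without it 38 of 9023 probe sets were called, 12 higher and 26 lower, and 5 of the 21 eggshell genes were among them. These were Femcoat at -1.94, Cp18 at -1.70, Cp16 at -1.51, Muc12Ea at -1.44 and Cp19 at -1.37, and Cp18, Cp16 and Cp19 share 1 stretch of chromosome arm 3L. Heat selected replicate 3 had the highest heat selected value in all 5, so leaving it out widened their differences. With all lines none of the 21 was called. The median of the eggshell list was -1.26 without that line and -0.60 without heat selected replicate 2. With the RNA quality covariate the median was -0.89. Without heat selected replicate 1 the differences were smaller and none was called, at -0.68 for Cp18, -0.77 for Cp16 and -0.67 for Muc12Ea.

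Other products of the ovary and of yolk formation differed less. Over 38 germ line and oocyte genes the median was -0.03, with 16 above 0 and 22 below, and none was called. The yolk proteins Yp1, Yp2 and Yp3, which the fat body and follicle cells make for the oocyte, differed by -0.08 ± 0.09, -0.29 ± 0.15 and -0.26 ± 0.12. Their receptor on the oocyte, yl, lay at 10.53, 10.85 and 10.66 against 10.43, 10.46 and 10.49, a difference of 0.22 ± 0.09 (adjusted p = 0.425, limma), or 0.13 without heat selected replicate 2. On the deposited scale the groups of yl did not overlap, whereas those of all 3 yolk proteins did. In that scale 7.31% of all genes were higher without overlap. With quantile normalization, or with each array centred on its median, the groups of yl overlapped too.

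Fat body genes had the single largest difference of the comparison. Lsp2, a larval serum protein that stores amino acids and is also read in the adult fat body, measured 6.37, 4.57 and 5.70 in the heat selected lines and 7.50, 8.78 and 7.48 in the cold selected lines. The groups did not overlap, but both spread widely. The difference was -2.37 ± 0.78, or 5.18-fold, and did not pass (adjusted p = 0.334, limma). The other 18 arrays also varied widely for this gene, from 5.94 to 10.52. The control lines had a mean of 9.60, above both. Serpent (srp), a GATA factor of fat body and blood cells, measured 6.72, 6.17 and 6.61 against 7.35, 7.67 and 6.87, a difference of -0.79 ± 0.18 (adjusted p = 0.157). The lipid carrier apolpp was at -0.50 ± 0.13, with -0.30 by its other probe set, and its groups did not overlap. Sp7, a serine protease of the melanisation response, went the other way at 0.59 ± 0.19. Of the 11 genes in this list, 3 were lower (4.17% of all genes) and 1 higher (7.31%) without overlap. The list median was -0.20, with -0.086 to -0.32 when 1 line was left out and 0.0057 with no filter on dim probe sets.

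All 13 maltases and amylases, which split sugars and starch, were above 0, with a median of 0.41, and in 7 the heat selected lines were all above the cold selected lines (7.31% of all genes). That number was 6 with each array centred on its median (4.25% of all genes). None was called. The list mean was 8.81, 8.39 and 8.19 in the heat selected lines and 8.07, 8.03 and 7.94 in the cold selected lines, with the other arrays from 7.82 to 8.38. Heat selected replicates 1 and 2 were thus above all of the rest. Mal-A3 measured 6.32, 5.25 and 5.01 against 4.63, 4.72 and 4.76, a difference of 0.82 ± 0.25 (adjusted p = 0.314, limma). Here heat selected replicate 1 was far above the other lines, and without it the difference was 0.42. Mal-A4, its immediate neighbour in the genome, measured 7.06, 6.54 and 6.16 against 5.96, 5.61 and 6.01, a difference of 0.73 ± 0.24 (adjusted p = 0.329). The other 18 arrays reached 6.92 for Mal-A4, within the heat selected range. The median of the list ran from 0.31 without heat selected replicate 1 to 0.57 without heat selected replicate 3.

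Digestive proteases lay mostly below 0. Of 28 Jonah and trypsin-type proteases 22 were below 0 and 6 above, with a median of -0.20, and 3 were lower in the heat selected lines without overlap (4.17% of all genes). With each array centred on its median 6 were, against 6.48% of all genes. Jon25Bii measured 7.12, 8.06 and 8.13 against 8.56, 9.72 and 9.19, a difference of -1.39 ± 0.46 (adjusted p = 0.340, limma). The list mean was 8.64, 9.15 and 9.19 in the heat selected lines and 9.15, 9.31 and 9.36 in the cold selected lines, so replicate 1 stood low and the other 2 heat selected lines were next to cold selected replicate 1. Without heat selected replicate 1 the median was 0.0042, so the direction of this list rested on that line.

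**Figure D4:**
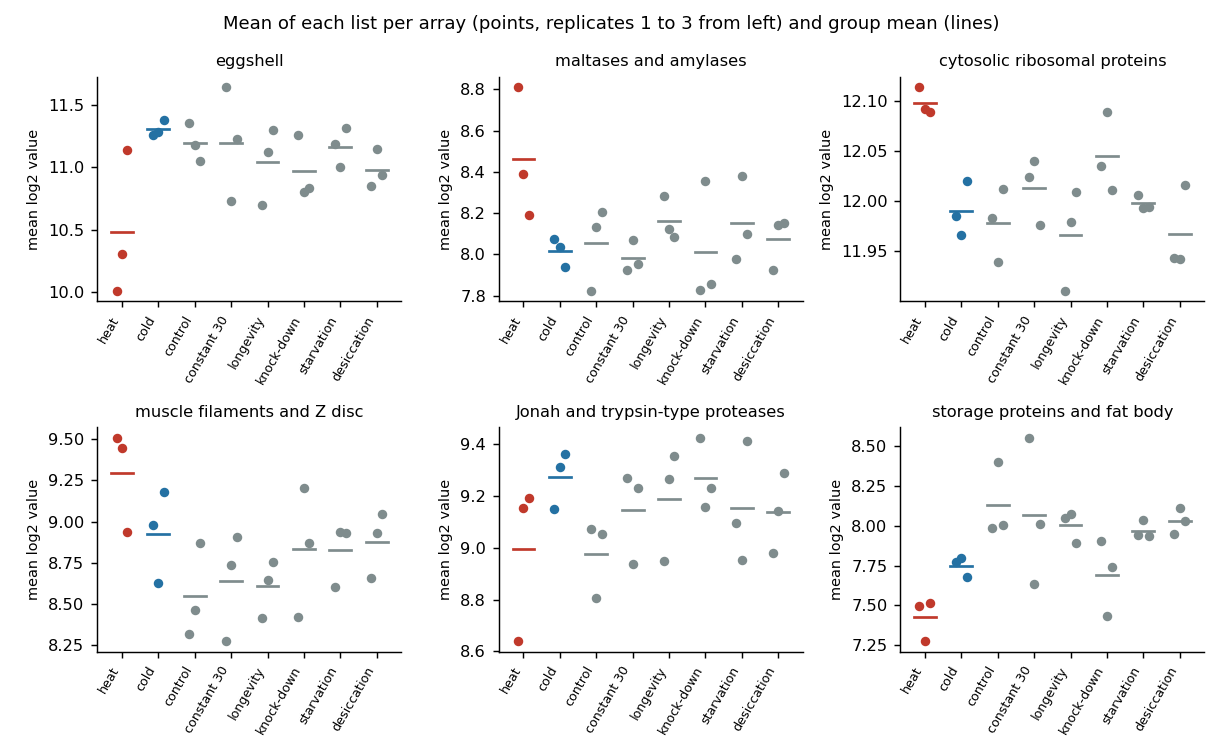
Mean log2 level of 6 gene lists on each of the 24 arrays (points, replicates 1 to 3 from left to right) with group means (lines), heat selected in red, cold selected in blue and the other 6 groups in grey; axes do not start at 0. The eggshell mean is lower and the maltase and ribosomal protein means are higher on all 3 heat selected arrays than on all 3 cold selected arrays, whereas the muscle means overlap.

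Ribosomal protein genes showed small, even differences. Of 33 cytosolic ribosomal protein genes 32 were above 0, with a median of 0.10, and in 13 the heat selected lines were all above the cold selected lines (7.31% of all genes). None was called. RpL3, a protein of the large subunit, measured 13.33, 13.34 and 13.22 against 12.95, 13.03 and 13.11, a difference of 0.27 ± 0.07 (adjusted p = 0.213, limma). RpL37A differed by 0.21 ± 0.05 and RpS21, of the small subunit, by 0.19 ± 0.05. The list mean was 12.11, 12.09 and 12.09 against 11.98, 11.97 and 12.02. The lines of each group were close together, and the gap was small on the log2 scale. With each array centred on its median the median of the list was 0.06, with 10 genes higher without overlap (4.25% of all genes). Mitochondrial ribosomal proteins, 66 genes, had a median of 0.02.

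Muscle genes had higher means in the heat selected lines, but the lines overlapped in every gene. All 26 genes of the muscle filaments and Z disc were above 0, with a median of 0.33, and 0 were separated. The list mean was 9.51, 9.45 and 8.94 in the heat selected lines and 8.98, 8.62 and 9.18 in the cold selected lines. Heat selected replicate 3 was inside the cold selected range. Actn, the actinin of the Z disc, measured 10.16, 10.01 and 9.83 against 9.65, 9.60 and 9.86, a difference of 0.30 ± 0.10 (adjusted p = 0.342, limma). Act88F, the actin of flight muscle, differed by 1.07 ± 0.65. The median of the list ran from 0.18 without cold selected replicate 2 to 0.53 without heat selected replicate 3.

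Genes of energy metabolism had medians above 0, and their means, like that of muscle, were lowest of the 6 arrays on cold selected replicate 2. All these means on that array lay within the range of the other 18 arrays. For the respiratory chain that range was 9.66 to 10.15, with a median of 9.90. For the tricarboxylic acid cycle cold selected replicate 2 was at 9.96, and the rest of the 6 arrays were above the highest of the 18, 10.14. Of 58 genes of the respiratory chain and ATP synthase 53 were above 0, with a median of 0.18, and 7 were higher in the heat selected lines without overlap, which is 12.1% against 7.31% of all genes. With quantile normalization 5 were higher (8.62%) and 2 lower (3.45%), against 6.02% and 5.63% of all genes. The list mean was 10.23, 10.33 and 10.10 against 10.10, 9.86 and 10.19. Without cold selected replicate 2 the median was 0.09. ND-75, a subunit of complex I, measured 9.98, 10.41 and 9.78 against 9.73, 9.39 and 9.78, a difference of 0.42 ± 0.14 (adjusted p = 0.342, limma) that was 0.25 without heat selected replicate 2. With the RNA quality covariate the median of the list was 0.12. The 15 genes of the tricarboxylic acid cycle had a median of 0.13 and the 11 of glycolysis 0.10, with 0 and 1 gene higher without overlap on the deposited scale and 0 in both lists after the other scalings. Without cold selected replicate 2 these medians were 0.076 and 0.025.

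Eye and nervous system genes were also mostly above 0. The median was 0.20 over 17 genes of the eye and phototransduction, 16 of them above 0 and 3 higher without overlap. Over 19 genes of the nervous system it was 0.21, with 17 above 0 and 6 higher without overlap, where 7.31% of all genes had that pattern. With each array centred on its median the eye list had 2 higher and 1 lower without overlap, against 4.25% and 6.48% of all genes. With quantile normalization the nervous system list had 5 higher and 1 lower, against 6.02% and 5.63% of all genes. Choline acetyltransferase (ChAT), which makes the transmitter acetylcholine, measured 4.24, 4.18 and 3.96 against 3.79, 3.80 and 3.82, a difference of 0.32 ± 0.11 (adjusted p = 0.342, limma). All its heat selected values were above the cold selected ones, but the gene is dim. Trpl, a channel of the photoreceptor, lay at 7.38, 6.88 and 6.14 against 5.74, 6.70 and 5.68. Its groups overlapped, and its difference was 0.76 ± 0.31 (adjusted p = 0.413), or 0.47 without heat selected replicate 1.

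**Figure D5:**
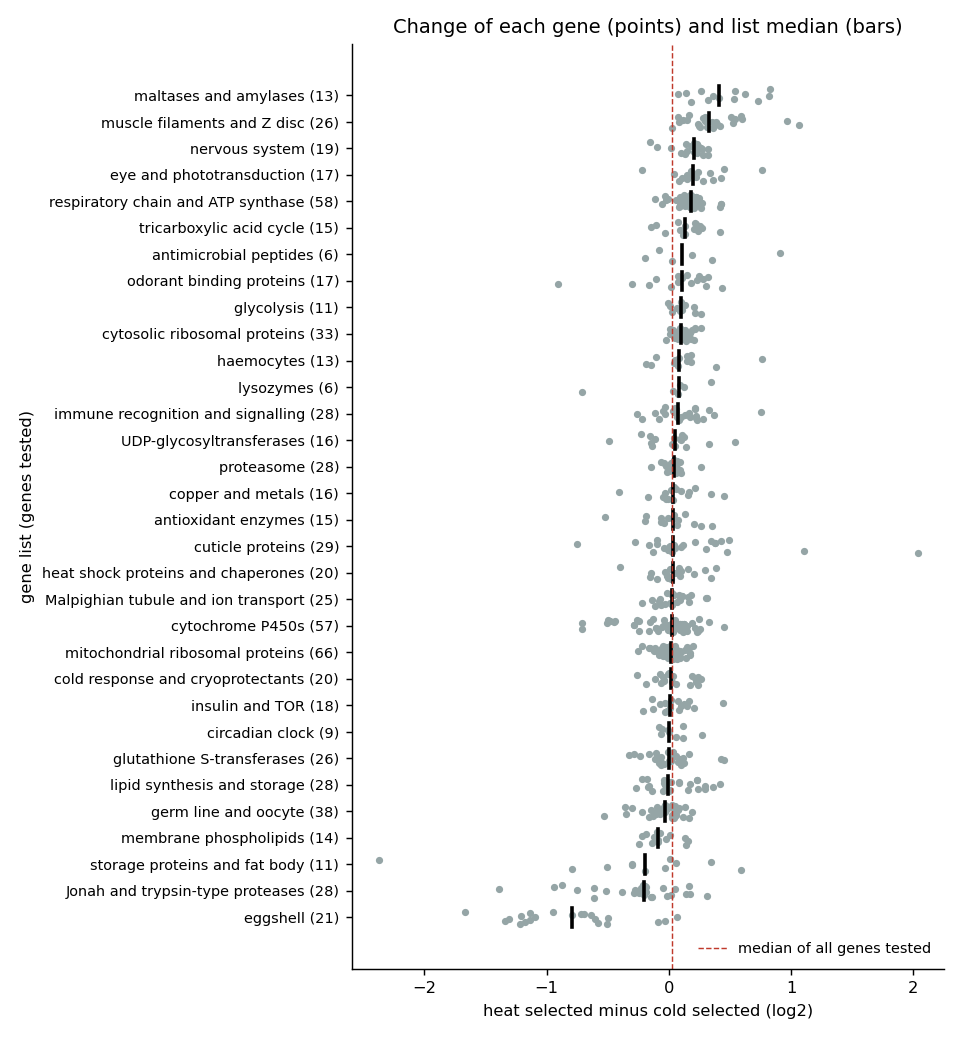
Heat selected minus cold selected change (log2) of each tested gene in 32 gene lists (points, lists of at least 6 genes) with the list median (black bar) and the median of all 7439 genes (dashed line); numbers in brackets are genes tested. The eggshell median lies at -0.79 and the maltase median at 0.41, and the heat shock and cold response lists lie at 0.03 and 0.02.

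The lists of genes known for heat and cold responses lay near 0. Of 20 heat shock proteins and chaperones 12 were above 0 and 8 below, with a median of 0.03 (-0.0051 with each array centred on its median), and none was called. Hsc70-5, the chaperone of the mitochondrial matrix, measured 9.11, 8.65 and 8.98 against 9.47, 9.34 and 9.14, a difference of -0.40 ± 0.13 (adjusted p = 0.328, limma). It was the only member of the 20 lower in all heat selected lines, 5.00% against 4.17% of all genes. Hsc70-3, the chaperone of the endoplasmic reticulum, differed by 0.30 ± 0.14 and the small heat shock protein Hsp27 by 0.21 ± 0.11, both without overlap on the deposited scale, where 7.31% of all genes were higher in that way. With each array centred on its median no gene of the list was higher without overlap. Without heat selected replicate 2 Hsc70-3 lay at 0.081, and without cold selected replicate 2 Hsp27 lay at 0.13. Hsp26 lay at 0.01 ± 0.19, Hsp68 at 0.10 ± 0.31 and Hsf, the factor that switches on heat shock genes, at -0.03 ± 0.10.

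The 20 genes of cold response and protective solutes had a median of 0.02, with 11 above 0 and 9 below, and none was called. Their changes ran from -0.26 to 0.26. The only member at an unadjusted p under 0.05 (limma) was lower in the heat selected lines, whereas the members named next lay above 0. Frost (Fst), which is induced by cold, measured 6.08, 6.69 and 8.27 against 6.70, 6.60 and 7.02. Heat selected replicate 3 was the highest and replicate 1 the lowest of the 6, and the difference was 0.24 ± 0.59. Smp-30, known as a cold acclimation gene, lay at 0.04 ± 0.24, and Tps1, which makes trehalose, at 0.24 ± 0.14. Regucalcin, a calcium-binding relative of smp-30, lay at 0.26 ± 0.14 (adjusted p = 0.496, limma), with all heat selected lines above the cold selected lines. It was the only member of the 20 with that pattern, 5.00% against 7.31% of all genes. Over 14 genes of membrane phospholipids the median was -0.09. The phospholipase gene sws differed by -0.24 ± 0.08 (adjusted p = 0.355), with no overlap. It was the only one of the 14 lower in that way, 7.14% against 4.17% of all genes. Over 28 genes of lipid synthesis and storage the median was -0.0029. Among them SREBP, the factor that drives fatty acid synthesis in flies, was at 0.36 ± 0.10 and the fatty acid synthase FASN2 at 0.42 ± 0.17. The lipase bmm was at -0.22 ± 0.08. All of these were without overlap and none was called. In this list 3 genes were higher (10.7%) and 2 lower (7.14%) without overlap, against 7.31% and 4.17% of all genes.

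Beyond these lists, the rule for named genes took the largest changes at an unadjusted p under 0.01 whose groups did not overlap. Higher in the heat selected lines was CG14757, at 7.17, 6.94 and 6.50 against 5.87, 5.89 and 6.05. Its heat selected values were also above each of the other 18 arrays, which reached 6.38, and its difference was 0.93 ± 0.19 (adjusted p = 0.113, limma). Glycogenin (Gyg), which primes glycogen synthesis, measured 7.62, 8.18 and 8.06 against 7.48, 6.72 and 7.52, a difference of 0.71 ± 0.21 (adjusted p = 0.308), or 0.45 without cold selected replicate 2. Its lowest heat selected line was only a little above the highest cold selected line, and the control mean of 7.83 lay near the heat selected mean of 7.95.

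Arc1, a capsid-forming protein of neurons, was separated more clearly, at 5.85, 6.12 and 6.06 against 5.51, 5.21 and 5.49, and differed by 0.61 ± 0.15 (adjusted p = 0.157, limma). CG6432 was the most even, at 6.17, 6.12 and 6.08 against 5.56, 5.43 and 5.48, which is 0.64 ± 0.14 (adjusted p = 0.157). The highest of the other 18 arrays was 6.26, above its heat selected values, and knock-down selected lines had a mean of 5.93. The phosphatase Pp2C1 differed by 0.57 ± 0.11 (adjusted p = 0.102), but its other probe set gave 0.05. CG15021 lay at 0.65 ± 0.21, the arrestin Vdup1 at 0.58 ± 0.20, CG16904 at 0.56 ± 0.17 and the secreted phospholipase GXIVsPLA2 at 0.52 ± 0.17. The other 18 arrays reached 5.19 for CG15021 and 7.83 for GXIVsPLA2, above all heat selected values of these genes.

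Among the genes lower in the heat selected lines, CG13083 and CG18088 came closest to the threshold, each with an adjusted p of 0.0682 (limma). CG13083 measured 9.48, 9.50 and 9.85 against 10.85, 10.94 and 10.58, a difference of -1.18 ± 0.22, and CG18088 measured 4.03, 4.53 and 4.81 against 5.95, 5.88 and 5.24, a difference of -1.23 ± 0.23. Neither gene had overlapping groups. The lowest of the other 18 arrays was 9.53 for CG13083 and 4.71 for CG18088, each within the heat selected range. The mucin gene Mur2B, at -1.19 ± 0.30, CG15571, at -1.39 ± 0.33, and CG11034, at -1.54 ± 0.51, were also separated. On the other 18 arrays the lowest values were 7.10, 6.39 and 4.13, the first 2 within the heat selected range and the last below it. CG15571 lies close to Femcoat on chromosome X in the Release 6 gene table, with 1 gene between them.

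The other 18 arrays show on which side each difference lay, as a description with no test. Of the 13 named genes higher in the heat selected lines, 11 had a mean on the other arrays nearer to the cold selected mean, and of the 13 lower ones 12 did. In all 26 the heat selected group was the outermost of the 8 groups. These genes were chosen for a large gap in this same comparison, which favours an outermost group mean. Among all genes without overlap, heat selected lines had the highest mean in 74.3% of the higher ones. They had the lowest mean in 75.8% of the lower ones. Over all 7439 genes the other arrays were nearer the cold selected mean in 70.4%. That share was 80.0% among the 544 genes higher and 78.7% among the 310 genes lower in heat selected lines without overlap. Heat selected lines had the highest of the 8 group means in 31.1% of all genes and the lowest in 21.3%, against 8.19% and 9.60% for cold selected lines. Among the 3 called genes, only CG15221 had cold selected lines also outermost. Among the named genes, cold selected lines had the lowest group mean in 2 of the 13 higher ones and the highest in 5 of the 13 lower ones.

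The heat selected lines were also more uneven for a small set of genes. The SD between the 3 lines was above 0.5 in 163 genes in the heat selected group and in 59 in the cold selected group, while the median SD was 0.110 and 0.113. Heat selected replicate 2 was the highest of the 6 arrays in 30.1% of genes. It was also the array with the smallest 3' minus 5' difference, and with that measure as a covariate 557 probe sets had an unadjusted p under 0.05 in place of 992.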

How the data were processed

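Affymetrix arrays of 24 lines, 3 in each of 8 groups, were analysed. The deposited values are log2 levels of 14010 probe sets, made by the authors with GCRMA, per the submitters' processing notes. The sources used here give neither its version and settings nor whether all arrays were normalized in 1 run. No normalization was added. The precision is limited by the number of arrays, 3 lines per group.

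Leaving out 44 maker controls, the filter kept probe sets with log2 above 4 on at least 3 of 24 arrays. Names were taken from the platform annotation and brought up to date with the Release 6 gene table, used also for neighbours. Of the 9023 tested probe sets 8068 named 1 gene, 222 several and 733 none. Where several tested probe sets named a gene, the brightest over 24 arrays stood for it.

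All 24 arrays were fitted in limma 3.58.1 (R 4.3.3) with a mean for each group by lmFit and eBayes (residual degrees of freedom 16, prior 3.56), and heat selected minus cold selected was the contrast. The two-sided p-values were adjusted over 9023 probe sets by the Benjamini-Hochberg method. Errors are standard errors of that fit. An exact permutation test of 3 against 3 cannot go below 0.1 and was not used. The code was tested on simulated data.

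The comparison, the gene lists and the rule for names were chosen with earlier results of these data known. The rule took called probe sets naming 1 gene without overlap between the groups. It filled them to 12 in each direction (8 where CG and CR numbers are passed over) with the largest changes at an unadjusted p under 0.01. In each of the 35 lists up to 4 members were taken by their p. Genes outside the rule, such as Act88F, Hsp26, Hsp68, Hsf, Fst and smp-30, were chosen for what they are known for, and the vitelline membrane genes after their values were seen.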

Additional observations from a re-analysis of the deposited data

How the results depend on the processing

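The count of 3 calls was between 2 and 4 under no filter, quantile normalization, median centring, array weights, a prior trend with robust eBayes, and the RNA quality covariate. The same 3 probe sets were among the calls under no filter, median centring and the prior trend, whereas Cdk5 was lost with quantile normalization, the RNA quality covariate and array weights, and with array weights CG18088 was called in its place. The count was 0 with a filter at log2 above 6, which leaves out CG15412 and CG15221 (767 probe sets at an unadjusted p under 0.05), and 0 in limma on the 6 arrays alone (616), where the spread is estimated from fewer arrays. A threshold of 0.1 gave 5 calls, and a change of at least 1 gave 0. Leaving out 1 line at a time gave 0 to 38 calls: 0 without heat selected replicate 2, cold selected replicate 1 or cold selected replicate 2 (473, 631 and 807 at an unadjusted p under 0.05), 2 without heat selected replicate 1, 38 without heat selected replicate 3 and 6 without cold selected replicate 3. The labels do not say whether the replicate numbers pair the lines. Deviations of same-numbered lines correlated at 0.106, -0.106 and -0.081, and not every line correlated best with its own number. With 3 lines per group these values cannot settle it. With the replicate number as a block the same 3 probe sets were called, and 1132 in place of 992 had an unadjusted p under 0.05. The smallest adjusted p was then 0.00025 (limma), in place of 0.0103.

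Directions turned for genes that lay near 0 or varied widely between lines; the cause was not tested. With quantile normalization mia was at -0.040 and Yp1 at 0.063. Leaving out 1 line at a time gave ranges that crossed 0 for bam (-0.019 to 0.14), Clk (-0.012 to 0.20), dco (-0.011 to 0.12), Drs (-0.20 to 0.0074), Drsl5 (-0.047 to 0.36), jet (-0.11 to 0.0050), LysD (-0.13 to 0.22), mia (-0.067 to 0.17), Mtk (-0.80 to 1.77) and Yp1 (-0.18 to 0.012). Medians of the eggshell, maltase, muscle, eye, nervous system, cytosolic ribosomal, respiratory chain, tricarboxylic acid cycle and glycolysis lists kept their sign under all settings run. The medians of the storage and protease lists each turned sign under 1 setting, and several list medians near 0 also turned.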

Other observations

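Detoxification and defence genes, which the comparison above leaves out, lay near 0 as groups, and none was called. Of 57 cytochrome P450 genes, which oxidise toxins, hormones and fatty acids, 6 were lower (4.17% of all genes) and 2 higher (7.31%) in the heat selected lines without overlap, with a median of 0.03. After quantile normalization 7 were lower (5.63% of all genes) and 0 higher (6.02%). After median centring 7 were lower (6.48% of all genes) and 0 higher (4.25%). The median turned below 0 under both. Cyp4ac3 measured 3.99, 3.83 and 3.92 against 4.64, 4.88 and 4.37, a difference of -0.71 ± 0.15 (adjusted p = 0.121, limma). Its heat selected values were all below the lowest cold selected value, at levels near the filter of 4. Medians were -0.0020 over 26 glutathione S-transferases, 0.05 over 16 UDP-glycosyltransferases and 0.04 over 15 antioxidant enzymes. Thioredoxin reductase (Trxr1) measured 11.31, 11.63 and 11.31 against 11.08, 11.03 and 11.08, a difference of 0.36 ± 0.09 (adjusted p = 0.204). Catalase (Cat) differed by 0.27 ± 0.11, and both were without overlap. Of the 15 antioxidant genes 3 were higher (7.31% of all genes) and 1 lower (4.17%) without overlap. In blood cells, Hml, a haemocyte marker, differed by 0.76 ± 0.31 (adjusted p = 0.413) without overlap. Cold selected replicate 3 was far below the other lines at 4.94, and the difference was 0.45 without it. Of 13 haemocyte genes 3 were higher (7.31% of all genes) and 0 lower (4.17%) without overlap. The median was 0.09 over 13 haemocyte genes, 0.08 over 28 genes of immune recognition and signalling, 0.11 over 6 antimicrobial peptides and 0.08 over 6 lysozymes. When 1 line was left out, the last 2 medians ran from -0.039 to 0.32 and from -0.12 to 0.23, so neither had a stable direction. Mtk, an antimicrobial peptide, ran from 3.31 to 8.44 within the cold selected group alone.

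Growth signalling and transport held a few separated genes. Lk6, a kinase of the translation factor eIF-4E, measured 10.78, 10.84 and 10.76 against 10.26, 10.19 and 10.60, a difference of 0.44 ± 0.10 (adjusted p = 0.157, limma). Without cold selected replicate 3 it was 0.57 with an adjusted p of 0.042. The pump subunit VhaSFD differed by 0.31 ± 0.08 (adjusted p = 0.256). Medians were 0.01 over 18 insulin and TOR genes, 0.03 over 25 Malpighian tubule and ion transport genes, 0.04 over 16 copper and metal genes, 0.04 over 28 proteasome genes, 0.0011 over 9 clock genes, 0.11 over 17 odorant binding proteins, 0.11 over 4 testis markers and 0.22 over 2 male accessory gland genes.

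In 8 genes heat selected replicate 1 lay at least 2 on the log2 scale beyond all 5 other arrays of the comparison, and no other array did so for any gene. The adult cuticle gene Acp1 was at 10.99 there and at 4.75 to 5.69 on the others. Acp65Aa, another adult cuticle gene, was at 7.78, and Cpr92F, with the chitin-binding domain of cuticle proteins, at 7.05. CG8736 and CG11458 were also high, at 6.89 and 7.05. CG7298, Acbp6 and the protease Jon66Ci were low, at 3.53, 4.67 and 7.42. Over all 29 cuticle genes tested the median difference was 0.03, and the mean level was 5.47 on heat selected replicate 1 and 4.91 to 5.17 on the other 5 arrays.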
